A study of Daphnia magna with 12 samples.

Results

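The comparison of ZnO nanoparticles with the blank is between 8 of the 12 arrays of the series, chosen by their titles. The titles name ZnO on 4 of these arrays and the blank on 4. All 4318 probes of the deposited table have a value on every one of them. The animals were Daphnia magna, a freshwater crustacean that filters algae from the water. Both groups were kept in ISO test medium with algal food for 96 h. The ZnO group received the nanoparticles at the EC10 for immobilisation (the concentration at which 10% of animals stop moving), with medium and nanoparticles renewed after 48 h, and the blank was not exposed. Another group received the salt ZnCl2 at its own EC10 and serves here as a point of reference. Its arrays also enter the statistical fit, where they share in the estimates of spread and dye effect behind each p and interval. Each replicate was whole-body RNA of 40 pooled daphnids, labelled as sampled at an age of 96 hours, and the clone of the animals is not stated in the labels.

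Zinc is an essential metal that many enzymes and transcription factors need, and in excess it is toxic to aquatic animals. ZnO particles release zinc ions in water, so an animal kept with them can meet both particles and dissolved metal. Animals generally handle surplus zinc with zinc exporters and importers of the SLC30 and SLC39 families and with metallothioneins, small cysteine-rich proteins that bind the metal. Which probes of this array read those genes cannot be said here. The files pair no probe with a gene, and none of the 4318 identifiers was found among the 28335 genes of the RefSeq table of the species. Probes are therefore described by identifier, direction, size and steadiness.

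Each array set 1 pool against a zinc reference mixed in equal parts from the ZnO, ZnCl2 and blank samples. A value was read as a log2 ratio of pool over reference, so -1 is 50% of the reference level and 0 equals it. This scale was checked on the 15 largest rises described below. Turned back to linear ratios, the means of the 3 groups should average 1 for a reference that is their equal mixture. They averaged 0.967 to 1.13 (median 0.997) when read as log2 of pool over reference. Read as natural logs they averaged 1.04 to 1.31 (median 1.12), a range that overlaps the log2 one, so the check separates these 2 bases less clearly. As log10 the median was 2.11 (1.78 to 2.98), and as log2 of reference over pool it was 1.94 (1.42 to 12.6). On each of the 8 arrays, 334 to 1370 probes held exactly the same value as another probe, for a reason the labels do not state. Among the probes called below, 122 of 384 had such a value on at least 1 array, as had 2058 of all 4318, 1 of the 15 largest rises (DM01268P2) and 2 of the 10 largest falls (DM10599P1 and DM10856P1). No pair of probes shared values on more than 2 arrays. Per-probe signal over background was not used here. Precision is limited by there being 4 arrays a group.

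The 8 arrays had median ratios from -0.06 to 0.01 and SDs over probes from 0.34 to 0.55. Array profiles were not uniform within a group. Over all probes, which are not independent, the correlation between 2 ZnO arrays ranged from -0.45 to 0.54 in 6 pairs, between 2 blanks from -0.19 to 0.77 in 6 pairs, and between a ZnO and a blank array from -0.53 to 0.39 in 16 pairs. The lowest correlation between arrays of the same dye orientation was -0.32 (ZnO replicate 1 with blank replicate 2). Since a mixed reference lets exposed and blank pools deviate in opposite directions, and the dyes are stated, no sign was turned. ZnO replicates 1 and 4 and blank replicate 2 had the largest residual SDs of the 8 arrays, at 0.304, 0.381 and 0.368. The samples were whole bodies, in which fewer cells of a type and less RNA per cell cannot be told apart.

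Tested in limma, with a dye term and all 12 arrays in 1 fit, 384 of 4318 probes (8.89%) differed between ZnO and blank at a Benjamini-Hochberg adjusted p under 0.05. Probes higher in ZnO numbered 249 (5.77%) and probes lower in ZnO 135 (3.13%). Most changes were modest. Of the rises, 108 were under 1.5-fold, 91 lay from 1.5-fold to under 2-fold, 40 from 2-fold to under 4-fold, and 10 reached 4-fold. Of the falls, 54 were under 1.5-fold, 53 lay from 1.5-fold to under 2-fold, 28 from 2-fold to under 4-fold, and 0 reached 4-fold. The smallest change called was a 1.20-fold rise, and the smallest fall was 1.21-fold. Tested against a 1.5-fold change instead of 0, 35 probes passed, all of them rises. The count also depends on single pools: it was 206 without ZnO replicate 1, 225 without blank replicate 4 and 247 without blank replicate 1. It was 416 without ZnO replicate 3 and 489 without ZnCl2 replicate 2. Fitted on the ZnO and blank arrays alone, 294 probes passed, 198 higher and 96 lower in ZnO, and 262 of these were among the 384. With ZnO replicate 4, blank replicate 2 and ZnCl2 replicate 2 (the noisiest array of each group by its residuals) left out together, 194 probes passed, 135 higher and 59 lower in ZnO.

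**Figure D1:**
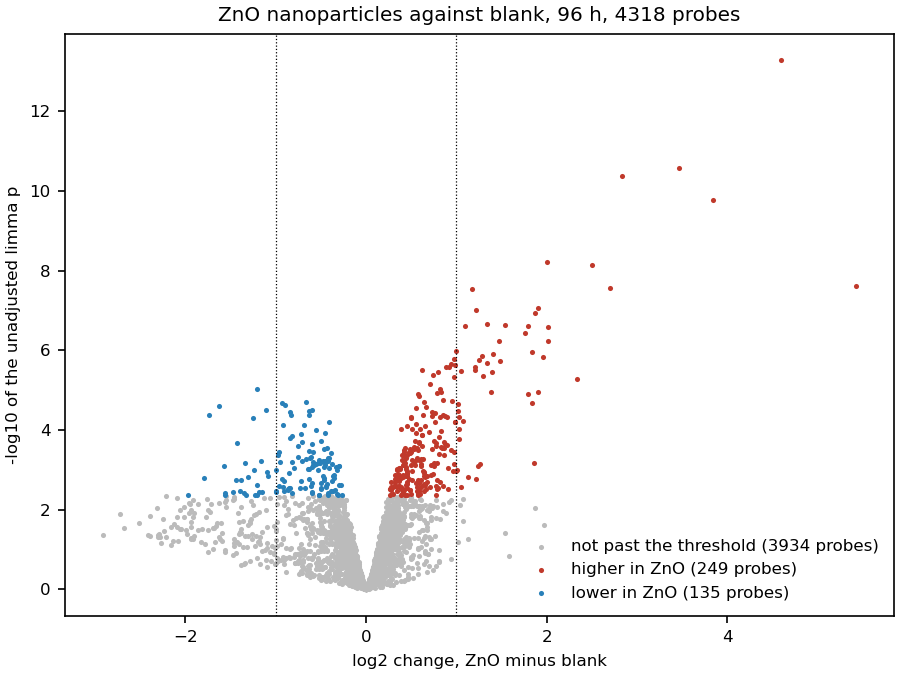
Log2 change between ZnO and blank (x axis) against -log10 of the unadjusted limma p (y axis) for 4318 probes, with 249 rises in red, 135 falls in blue and dotted lines at a 2-fold change. The rises reach further out and higher up than the falls, and most changes beyond 2-fold on the falling side are grey, that is, not past the threshold.

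The largest rises came from probes whose level in the blanks was far below the reference. The 15 named here are those with the largest change among rises whose ZnO and blank ratios as deposited did not overlap, a separation that 518 of all 4318 probes (12%) showed. Their blank means ran from 2.75% to 34.1% of the reference level (median 22.7%), whereas their ZnO means ran from 106% to 155% (median 121%). A probe silent in the blanks and equal in both zinc groups would have a log2 ratio of 0.58 in ZnO. The 15 ZnO means lay between 0.09 and 0.63, and 2 of all 249 rises had a ZnO mean above 0.58. All 15 kept their call when any of the 12 arrays was left out.

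DM02665P1 had the largest change and the lowest blanks. Its ratios were -1.13, 0.60, 0.79 and 0.68 in ZnO replicates 1 to 4 and -5.69, -5.19, -5.43 and -4.43 in blank replicates 1 to 4. The groups were separated by 3.31 log2 units at their nearest arrays, with ZnO replicate 1 well under its 3 companions. The rise was 42.9-fold (95% interval 24.7 to 74.5, limma adjusted p = 1.4e-05), and it was 5.83 on the log2 scale without that array instead of 5.42. Background correction, which could matter at such low blanks, is not described in the sources used here.

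DM11283P1 had the smallest p of the comparison. Its ZnO ratios were 0.61, 0.80, 0.45 and 0.66 and its blank ratios -3.83, -4.02, -4.06 and -3.97. No array strayed from its group, and the gap between the groups was 4.28, wider than for DM02665P1 although the change was smaller. Its rise of 24.2-fold (interval 21.3 to 27.5, limma adjusted p = 2.2e-10) had an SE of 0.08 on the log2 scale.

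A pair of probes followed at more than 10-fold. DM08568P3 stood at 0.33, 0.56, 0.06 and 0.15 in ZnO and at -3.03, -3.68, -3.79 and -3.77 in the blanks, a 14.3-fold rise (interval 11.3 to 18.2, limma adjusted p = 1.8e-07). DM07245P2 stood at 0.24, 0.42, 0.48 and 0.07 in ZnO and at -3.13, -3.41, -3.07 and -3.03 in the blanks, an 11.0-fold rise (interval 9.22 to 13.2, limma adjusted p = 5.8e-08). In both, the 4 ZnO pools lay above the reference and the 4 blanks at least 3 log2 units below it.

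DM08742P3 had a mean of 0.37 ± 0.24 in ZnO and -2.45 ± 0.14 in the blanks (SD, n = 4 each), a 7.11-fold rise (interval 6.11 to 8.28, limma adjusted p = 6.1e-08). Its ZnO pools were split by dye, at 0.59 and 0.57 with the sample in Cy3 and at 0.11 and 0.22 in Cy5, both far above the blanks. DM08407P1 rose 6.48-fold (interval 4.91 to 8.54), from -2.34 ± 0.33 to 0.35 ± 0.15. DM10766P2 rose 5.65-fold (interval 4.51 to 7.06), with ZnO ratios of -0.05, 0.53, 0.02 and 0.02 against blanks of -2.46, -2.64, -2.21 and -2.15. Only ZnO replicate 2 of that probe lay clearly above the reference.

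DM01268P2 was the least even of the 4-fold rises apart from DM02665P1. Its ZnO ratios were 1.00, -0.33, -0.28 and 0.41, while its blanks kept to -1.93, -2.19, -2.02 and -2.41. The rise was 5.06-fold (interval 3.34 to 7.68, limma adjusted p = 5.1e-04). DM08373P1 and DM07190P1 both rose 4.04-fold, with different spreads among the ZnO pools. DM08373P1 ranged from -0.51 on replicate 3 to 0.54 on replicate 2, against 0.10 to 0.33 for DM07190P1.

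The last 5 of the 15 rose by 3.64-fold to 3.99-fold. DM08105P2 was the tightest, with ZnO ratios of 0.23, 0.34, 0.20 and 0.39 and blanks of -1.64, -1.88, -1.65 and -1.67 (limma adjusted p = 5.2e-06). DM11236P2 had its higher ZnO ratios (0.70 and 0.53) on the Cy5 arrays and the lower ones (0.01 and 0.00) on the Cy3 arrays, and its blanks showed the same order, at -1.26 and -1.44 against -1.75 and -1.89. This offset is what the dye term of the fit removes. DM03029P4, DM06656P1 and DM06911P3 rose 3.89-fold, 3.75-fold and 3.64-fold, and their nearest ZnO and blank arrays were 0.85, 0.87 and 1.52 apart.

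**Figure D2:**
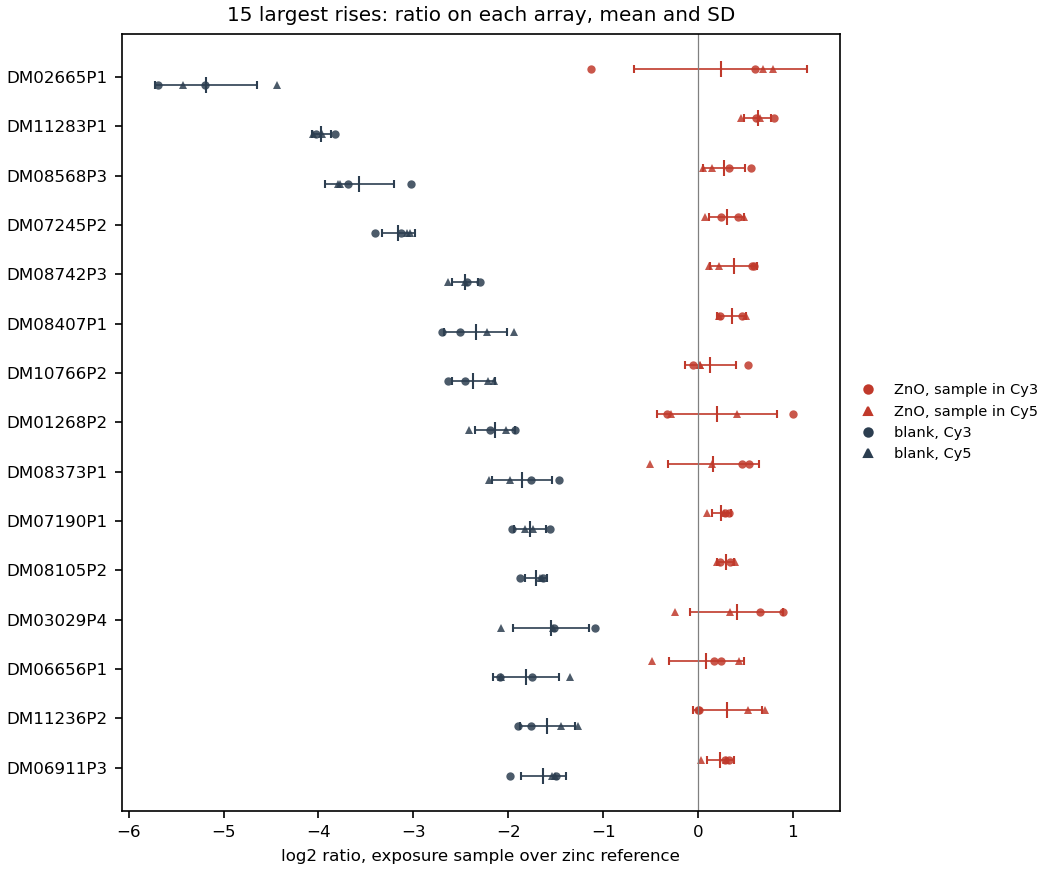
Log2 ratio of pool over zinc reference (x axis) on each of the 4 ZnO (red) and 4 blank (dark) arrays for the 15 largest rises, with circles for samples in Cy3, triangles for samples in Cy5, and the mean with its SD as bars. ZnO means keep to a narrow band from 0.09 to 0.63, while the blank means spread from -5.19 to -1.55.

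The remaining rises started from a shallower base. Of all 249, 31 had a blank mean under 50% of the reference, and the median blank mean was -0.48 against a median ZnO mean of 0.17. The median rise was 1.55-fold. Averaged over the 249 probes, the blank pools lay at -0.63 ± 0.08 and the ZnO pools at 0.19 ± 0.16 (SD, n = 4 each). This average is a description, because the same arrays chose the probes. In the ratios as deposited, ZnO replicate 3 had the lowest average of the ZnO pools, at -0.02, against 0.16 to 0.33 in the others. It was the lowest ZnO array for 141 of the 249 probes. With the dye term removed its average was 0.07, against 0.19 to 0.25 in the others.

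Falls had no counterpart to the steepest rises, and the median SE of a called change was 0.13 for falls and 0.11 for rises. The 10 named here are the falls of largest change whose ratios did not overlap. Their blank means lay at 131% to 185% of the reference and their ZnO means at 43.4% to 69.9%, so none approached silence after 96 h with the nanoparticles. Only DM12298P2, DM05996P3 and DM04001P1 kept their call without any single array. In the ratios as deposited, with the dye term not removed, ZnO replicate 1 was the lowest ZnO array for 6 of the 10. Replicate 4 was the lowest for 3, while replicate 3 was the highest for 7.

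DM02071P1 had the largest fall called. Its ratios were -2.08, -0.48, -0.30 and -1.85 in ZnO and 0.38, 0.14, 0.95 and 1.69 in the blanks, a 3.91-fold fall (interval 1.71 to 8.96, limma adjusted p = 0.049). ZnO replicates 1 and 4 carried most of it, and its call held in 3 of 12 refits that each left out 1 array. It was lost without any one of ZnO replicates 1, 3 and 4, the 4 blanks, or ZnCl2 replicates 3 and 4. DM01650P3 had the same 2 low pools, with ZnO ratios of -1.97, -0.39, -0.84 and -1.62 against blanks of -0.06, 1.55, -0.17 and 1.02. Its 3.46-fold fall (interval 1.80 to 6.63, limma adjusted p = 0.027) was lost without ZnO replicate 1 or 4 or blank replicate 2 or 4.

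DM12298P2 and DM05996P3 were the firmest of the large falls, and resembled each other array by array. DM12298P2 had blanks of 0.85, 0.81, 0.99 and 0.91 and ZnO ratios of -1.22, -0.84, -0.09 and -1.26, a 3.34-fold fall (interval 2.25 to 4.96, limma adjusted p = 0.0024). DM05996P3 had blanks of 0.74, 0.72, 0.93 and 0.93 and ZnO ratios of -1.28, -0.94, 0.05 and -1.02, a 3.10-fold fall (interval 2.19 to 4.38, limma adjusted p = 0.0017). In both, ZnO replicate 3 stayed near the reference while the other 3 pools dropped, and the blanks hardly varied.

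DM04001P1 fell 2.70-fold (interval 1.82 to 4.00, limma adjusted p = 0.0076), with ZnO ratios of -1.37, -0.48, -0.05 and -0.77 and blanks of 0.31, 0.33, 1.06 and 1.36. DM10960P3 fell 2.97-fold (limma adjusted p = 0.017), and its call was lost without ZnO replicate 1 or blank replicate 1 or 4. DM10599P1 fell 2.96-fold (limma adjusted p = 0.045), with a gap of only 0.02 between ZnO replicate 3 and blank replicate 1. Its call, like that of DM03989P4 (2.64-fold, limma adjusted p = 0.043), was lost without any of ZnO replicates 1, 2 and 4, any of the 4 blanks, or ZnCl2 replicate 3 or 4.

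DM01839P1 and DM10856P1 had the most even ZnO pools of the 10. DM01839P1 had ZnO ratios of -0.92, -0.66, -0.51 and -0.60 but blanks of 0.71, 1.82, -0.35 and 0.89, and fell 2.72-fold (limma adjusted p = 0.029). The call was lost without ZnO replicate 1, 2 or 4 or blank replicate 1 or 4. DM10856P1 was down in all 4 ZnO pools, at -0.89, -0.77, -1.34 and -0.98, against 0.61, -0.16, 0.65 and 0.47 in the blanks. It fell 2.62-fold (limma adjusted p = 0.028), and the call was lost without ZnO replicate 1, 3 or 4 or blank replicate 1, 3 or 4.

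**Figure D3:**
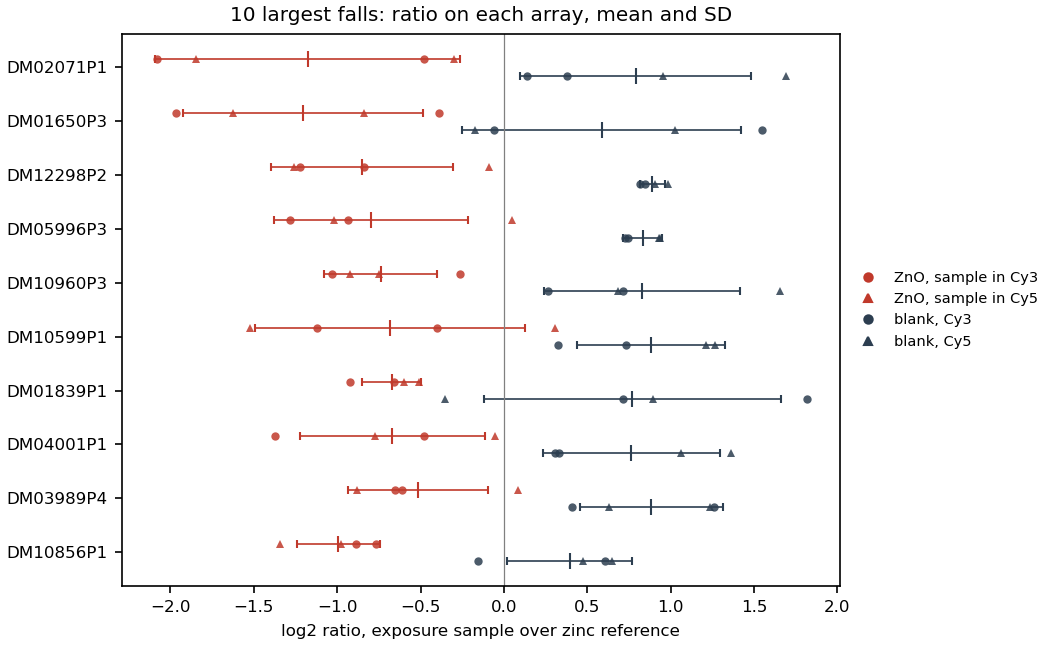
Log2 ratio of pool over zinc reference (x axis) on each ZnO (red) and blank (dark) array for the 10 largest falls, with circles for Cy3, triangles for Cy5, and the mean with its SD as bars. The nearest ZnO and blank arrays of a probe are 0.02 to 0.90 apart, against 0.85 to 4.28 for the 15 largest rises.

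Apart from DM05996P3, the falls of smallest p were smaller than the 10 named above and mostly more even, which ranking by p favours. DM08122P1 had ZnO ratios of -0.57, -0.53, -0.66 and -0.65 and blanks of 0.38, 0.98, 0.53 and 0.54, a 2.31-fold fall (interval 1.84 to 2.91, limma adjusted p = 8.7e-04). DM11029P2 fell 1.90-fold, DM08098P2 1.87-fold and DM00469P1 1.59-fold, with limma adjusted p from 0.0015 to 0.0017. These 4 probes and DM05996P3 have the smallest p among the falls, and each kept its call without any single array.

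Over all 135 falls the median was 1.55-fold. On average the blank pools stood at 0.41 ± 0.13 and the ZnO pools at -0.35 ± 0.15 (SD, n = 4 each), again a description of chosen probes. In the ratios as deposited, which mix the 2 dyes, ZnO replicate 1 was the lowest ZnO array for 62 of the 135 and replicate 3 the highest for 73. With the dye term removed, the average of the falls was -0.44, -0.23, -0.24 and -0.51 in ZnO replicates 1 to 4, so replicate 4 was lowest and replicate 2 highest. After removal of the dye term, the SD of the 4 ZnO arrays exceeded that of the 4 blanks for 68.9% of the falls and 56.6% of the rises, against 57.7% of all probes. The median SD among the falls was 0.19 in ZnO and 0.14 in the blanks, and among the rises 0.14 and 0.13. Calls that no single array could end numbered 135 of the 249 rises and 46 of the 135 falls. At 2-fold or more, where 78 probes were called (1.81%; 1.16% higher and 0.648% lower), they numbered 44 of 50 rises and 8 of 28 falls.

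Large differences that did not pass the threshold were mostly on the lower side. Of 59 probes at least 2-fold higher in ZnO, 50 were called (84.7%). Of 167 probes at least 2-fold lower, 28 were called (16.8%). The 139 others had a median SE of 0.66, against 0.31 for the 28. In 103 of the 139, ZnO replicates 1 and 4 were the 2 lowest of the 8 arrays in the ratios as deposited. The share of all probes with this order was not worked out, and choosing probes lower in ZnO favours low ZnO arrays. The median ratio of the 139 was -1.70 and -2.03 on ZnO replicates 1 and 4, but -0.45 and 0.00 on ZnO replicates 2 and 3.

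DM06709P1 shows this pattern at its most extreme, with ZnO ratios of -5.03, 0.34, -1.42 and -2.66 and blanks of 0.61, 0.13, 0.33 and 1.79. The estimate of -2.91 had an interval from -5.71 to -0.11 and a limma adjusted p of 0.18, which became 0.048 without ZnO replicate 2. That was the only 1 of 12 single-array refits to call it, and without ZnO replicate 1 the limma adjusted p was 0.40. DM02038P1, DM08074P4, DM13223P1 and DM02810P1 had estimates of -2.72, -2.68, -2.51 and -2.41. ZnO replicates 1 and 4 lay between -3.63 and -2.77 in all 4, and ZnO replicates 2 and 3 between -0.77 and -0.07. The low pools were not confined to ZnO. In these 4 and DM06709P1, ZnCl2 replicate 2 lay between -5.45 and -4.04, and the other ZnCl2 arrays between -0.89 and 0.71. DM02038P1 came nearest to the threshold (limma adjusted p = 0.088, or 0.040 without ZnCl2 replicate 2). It too was called in only 1 of 12 such refits, and the limma adjusted p was 0.22 without ZnO replicate 1.

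On the higher side, the largest uncalled estimates also turned on single pools. DM04851P1 had ZnO ratios of 0.57, 0.54, -0.35 and 0.53 and blanks of -2.12, -2.06, 0.17 and -2.15. Blank replicate 3 and ZnO replicate 3 stood apart, and without that blank the limma adjusted p went from 0.070 to 0.0059. For DM07986P1 (estimate 1.96, limma adjusted p = 0.13) the blank at odds was replicate 2, at 0.20 against -3.53 to -2.39, and without it the adjusted p was 0.014. DM04344P1 likewise had blank replicate 2 at 0.42 against -1.83 to -1.45, and its adjusted p went from 0.21 to 0.048 without it. In DM07986P1 and DM04344P1, ZnO replicate 1 was low as well, at -1.73 (others 0.19 to 0.63) and -1.15 (others -0.15 to 0.85). Without ZnO replicate 1 the limma adjusted p was 0.060 and 0.068. For DM04851P1, DM07986P1 and DM04344P1 alike, only 1 of 12 single-array refits called the probe. The limma adjusted p reached 0.18, 0.28 and 0.39 in other refits. DM07518P2 reached 4.00 on ZnO replicate 2 alone, and DM01294P1 reached 3.17 on ZnO replicate 1 alone.

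At the threshold itself, the 3 probes just inside (DM10868P2, DM00503P4 and DM04762P3) had a limma adjusted p of 0.0493 and changes of -1.22, 0.27 and -1.21. Just outside were DM05786P1, DM11174P2 and DM01556P2, at 0.0502 with changes of -0.58, -0.30 and -0.82. Their sizes overlap, from 0.27 to 1.22 in absolute value inside and from 0.30 to 0.82 outside.

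Many probes were bounded close to no change. The 95% interval lay within 1.5-fold for 2880 of the 3934 uncalled probes (73.2%) and within 1.25-fold for 1234 of them (31.4%). For 488 the interval reached a 2-fold change in at least 1 direction. The narrowest intervals belonged to DM06218P2, DM00571P1, DM01638P2, DM00221P3 and DM15079P1. DM00571P1, for instance, had ZnO ratios of -0.10, -0.05, 0.04 and 0.03 and blank ratios of -0.02, -0.09, -0.02 and 0.02, and its change was 0.01 (interval -0.12 to 0.13).

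Dye orientation gave 2 smaller comparisons that share no array, each with 2 ZnO and 2 blank pools. The 2 ZnCl2 arrays of each orientation stayed in its fit and entered the estimate of spread. The Cy3 arrays alone called 50 probes (1.16%) and the Cy5 arrays alone 38 (0.88%), and 15 probes were called in both, all of them higher in ZnO. The 15 are 30.0% of the first list and 39.5% of the second, and 10 of them are among the 15 largest rises. All 50 probes of the Cy3 arrays had the same sign in the Cy5 arrays, and 39 had an unadjusted limma p under 0.05 there, a level that 16.4% of all probes reached. The 44 rises among them had a median change of 1.64 in the Cy3 arrays and 1.11 in the Cy5 arrays, and the 6 falls -1.13 and -0.53.

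In the other order the match was incomplete. Of the 38 probes called in the Cy5 arrays, 32 kept their sign in the Cy3 arrays and 26 also had an unadjusted p under 0.05 there, against 16.5% of all probes. The 6 others (DM02485P1, DM02902P2, DM02956P3, DM05963P1, DM06883P1 and DM11499P1) were higher in ZnO by 1.24 to 2.50 in the Cy5 arrays and lower by 0.51 to 2.02 in the Cy3 arrays. They fall outside the rule for naming probes and were singled out after their values were seen. DM02902P2 had ZnO ratios of -2.59, -0.47, 0.23 and 0.69 and blanks of -1.59, 2.03, -1.77 and -1.52. Blank replicate 2 was the highest array and ZnO replicate 1 the lowest, and both are Cy3 arrays. None of the 6 was called over all arrays.

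Over the whole table, 195 probes differed at least 2-fold in both orientations. Both differences were upward for 44, of which 41 were called, and both downward for 121, of which 19 were called. For 30 the Cy3 arrays were lower and the Cy5 arrays higher, and for 0 the reverse. In those 30 the median ratio was 1.59 on blank replicate 2 and -2.45 on ZnO replicate 1, against -2.12 to -0.96 on the other blanks and -0.34 to -0.04 on the other ZnO arrays. Blank replicate 1 and ZnO replicate 2 carry the same dye as those 2 arrays and had medians of -0.96 and -0.34. The 30 were chosen for this disagreement, and its cause was not tested.

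**Figure D4:**
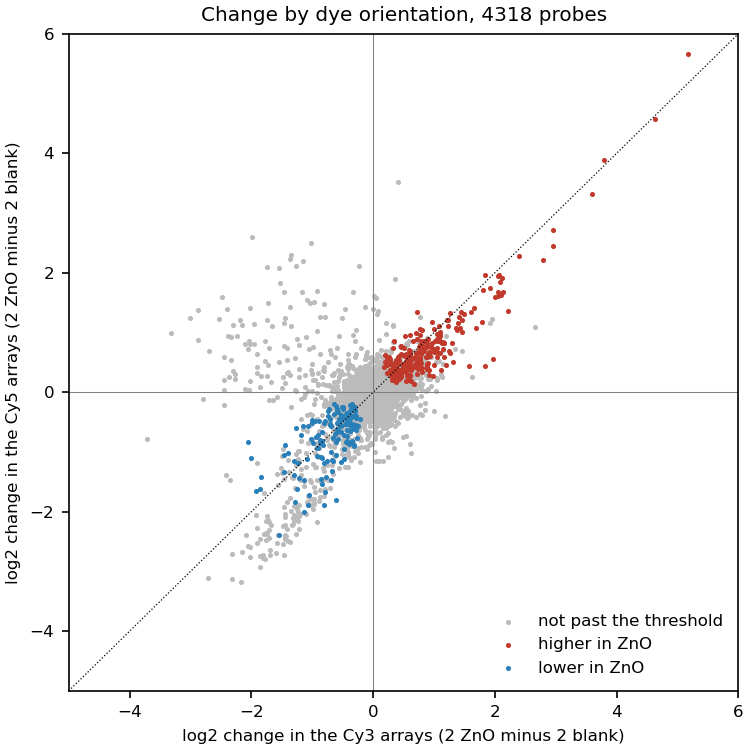
Log2 change between ZnO and blank in the 2 against 2 Cy3 arrays (x axis) and in the 2 against 2 Cy5 arrays (y axis) for 4318 probes, with rises in red, falls in blue, uncalled probes in grey and the line of equal change dotted. Rises lie near the line, a grey arm extends down and left with large uncalled decreases, and a second grey cloud lies at upper left, where the orientations disagree.

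All 384 called probes had the same sign in both orientations, a share that was 64.6% over all probes. The call used these arrays, so nothing is read from it. The median of the rises was 0.72 in the Cy3 arrays and 0.58 in the Cy5 arrays, and that of the falls -0.63 and -0.67. For the 15 largest rises the Cy3 changes lay between 1.83 and 5.18 and the Cy5 changes between 1.68 and 5.67. The dye term passed the threshold for 99 of the 249 rises and 48 of the 135 falls, against 36.7% of all probes.

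To set the nanoparticle beside the salt, ZnO was compared with ZnCl2 directly, which leaves the shared blanks out. In limma 0 of 4318 probes passed the threshold (lowest adjusted p = 0.35), and 246 had an unadjusted p under 0.05. Of the 384 probes called against the blank, 359 had a 95% interval for ZnO over ZnCl2 that stayed inside 2-fold, and 295 one inside 1.5-fold. The share over all 4318 probes was not worked out, so these counts do not set the called probes apart. A p above the threshold does not show that nanoparticle and salt act alike.

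The 15 largest rises nonetheless leaned one way, but they were read on the same pools and are not separate observations. ZnO was below ZnCl2 in 14 of the 15, by 0.22 to 0.67 on the log2 scale, and DM11283P1 was the exception (0.02, interval -0.17 to 0.20). Choosing probes for a large change with ZnO favours the opposite sign, and over all probes ZnO was below ZnCl2 for 55.8%, with a median difference of -0.02. The largest gaps were in DM01268P2 (-0.67, interval -1.27 to -0.06), DM02665P1 (-0.59, interval -1.38 to 0.21), DM06656P1 (-0.57, interval -1.10 to -0.04) and DM10766P2 (-0.56, interval -0.88 to -0.23). None passed the adjusted threshold, with limma adjusted p from 0.71 to 0.98 over the 15. Across all 249 rises ZnO was lower in 53.4%, with a median difference of -0.01.

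Against the same blanks, the 15 probes changed by 1.87 to 5.42 with ZnO and by 2.20 to 6.01 with ZnCl2, and all 15 were called for the salt too, where 9.01% of all probes were. Their ZnCl2 means lay between 0.57 and 0.87. DM08568P3, for example, was 3.84 higher with ZnO and 4.30 higher with ZnCl2. The 10 largest falls changed by -1.97 to -1.39 with ZnO and by -1.67 to -0.78 with ZnCl2, and 5 of them were called for the salt. Both comparisons use the same 4 blanks, so their likeness is no independent evidence. ZnO was below ZnCl2 for 79.3% of the 135 falls (median difference -0.14), a sign that choosing probes for a fall with ZnO favours.

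**Figure D5:**
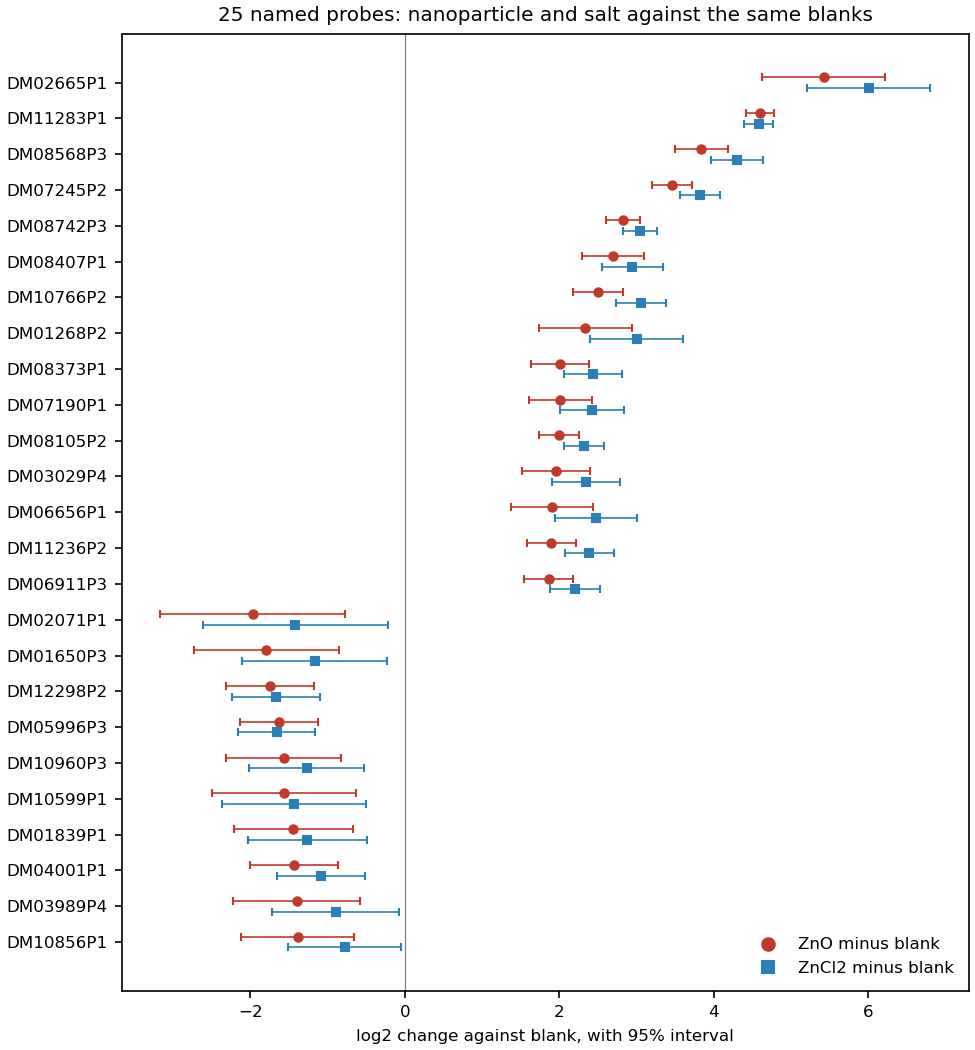
Log2 change against the blank (x axis) with 95% intervals for the 15 largest rises and 10 largest falls with ZnO, for ZnO (red circles) and ZnCl2 (blue squares), both measured against the same 4 blanks. Among the rises, 14 of 15 ZnO points lie left of the salt, with intervals that overlap, and intervals are wider among the falls.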

How the data were processed

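Gene expression was measured on 2-colour Agilent arrays, per the labels. RNA (100 ng) of each pool was amplified and labelled, with 2 replicates of each group in Cy3 and 2 in Cy5, against the reference in the other dye. The deposited table holds ratios of 4318 probes on 12 arrays, read here as log2. The submitters' processing notes name limma. The sources used here do not describe background correction, normalization or the choice of probes. The log base and direction were checked as the report describes.

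The ratios were fitted with limma 3.58.1 (R 4.3.3; lmFit, eBayes), as group means plus a dye effect over all 12 arrays (8 residual degrees of freedom). Tests were two-sided, with Benjamini-Hochberg adjustment over 4318 probes. The fit was also run on simulated ratios, with independent normal noise of the same spread in all groups for each probe. The simulation had no pools deviating together and no unequal spread between groups, so nothing is read from it for these data. Alternatives were a fit with no dye term, 8 arrays only, 1 orientation, other scalings, array weights, robust eBayes, a replicate block, a filter on variable probes, other thresholds and single arrays left out.

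Probes were named by a fixed rule: 15 rises and 10 falls of largest change without overlap, the 5 rises and 5 falls of smallest p, the 5 largest uncalled changes each way, 3 probes on each side of the threshold, and the 5 narrowest uncalled intervals. No 2 probes shared an identifier apart from its P number. The comparison, members and lists were chosen with earlier results of these data known. Replicates are separate pools. Nothing states that the cultures were separate, and p-values then cover only pool-to-pool spread, possibly technical. No 2 arrays were identical. Replicate numbers were not taken as pairs. Of 12 same-numbered pairs, 1 had residuals that correlated over 0.1 (ZnO 1 with blank 1, at 0.45). Same-numbered arrays share a dye, and fitting the dye effect lowers such correlations, so this check cannot exclude pairing.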

Additional observations from a re-analysis of the deposited data

Results flagged for a closer look

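Among 108 groups of 4 values examined, 11 had 1 array whose gap to the nearest of the others was large for the group's range. A rate of 1 in 20, or 5.4, would hold for groups drawn at random. The probes here were named by their values, so 5.4 is no measure of chance for them. Among called probes, DM02665P1 was at -1.13 on ZnO replicate 1 (others 0.60 to 0.79) and DM10766P2 at 0.53 on ZnO replicate 2 (others -0.05 to 0.02). DM06911P3 was at 0.031 on ZnO replicate 3 (others 0.29 to 0.33) and at -1.98 on blank replicate 2 (others -1.54 to -1.49). DM08568P3 was at -3.03 on blank replicate 1 (others -3.79 to -3.68), and DM08105P2 at -1.88 on blank replicate 2 (others -1.67 to -1.64). All of these lay far from the other group.

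Among uncalled probes, DM04851P1 was at -0.35 on ZnO replicate 3 (others 0.53 to 0.57) and at 0.17 on blank replicate 3 (others -2.15 to -2.06). DM07518P2 was at 4.00 on ZnO replicate 2 (others -0.28 to 0.32) and at -2.76 on blank replicate 3 (others -0.16 to 0.37), and DM04344P1 was at 0.42 on blank replicate 2 (others -1.83 to -1.45).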

How the results depend on the processing

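The count of 384 probes stayed within 1.5 times in 17 of 27 alternatives. It was 166 with no dye term, 50 in the Cy3 arrays alone, 38 in the Cy5 arrays alone, 139 when the threshold was 0.01, 78 at 2-fold or more and 35 against 1.5-fold, and 206 to 489 without single arrays. An alternative added after seeing the data, which left out ZnO replicate 4, blank replicate 2 and ZnCl2 replicate 2 (the largest residual SD of each group), gave 194. The threshold counts fall by construction (stricter limits). The single-orientation fits have fewer arrays, and for them and the others the cause was not tested. Of the 25 largest rises and falls, 14 were called in the Cy3 arrays alone, 12 in the Cy5 arrays alone and 18 to 25 without single arrays. With only the ZnO and blank arrays, 21 were called (15 rises and 6 falls). The 15 rises kept direction and call in 354 of 360 refits, and the 6 losses were in 1 orientation alone. The 10 falls did so in 156 of 239 and lost the call in 83. No named probe that was called changed sign. Between ZnO and ZnCl2, 0 probes passed under each of the 24 alternatives run.

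The replicate block, which contains the dye, gave 268 probes, 256 of them among the 384, and called 23 of the 25. The numbers were not taken as pairs (residual correlations from -0.62 to 0.45), so no call was read from it. Quantile normalization shifted the split of rises and falls from 249 and 135 to 216 and 150. Signal over background, which could limit the folds of the rises with very low blanks, was not used here.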

Other observations

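Over all 4318 probes, replicate spread was unequal between the groups. With the dye term removed, the SD of the 4 ZnO arrays was more than 3 times that of the 4 blanks for 438 probes, and the reverse held for 163. An SD over 1 log2 unit was reached by 149 probes in ZnO and 104 in the blanks, and by 46 in both. The median SD was 0.16 in ZnO and 0.14 in the blanks. These are values only, and their part in the results was not tested.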
